A study of Homo sapiens with 27 samples.

Results

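A group of 108 genes, out of 20453 in the count tables, had RNA that dexamethasone raised at least 2-fold in LPS-treated macrophages while LPS alone left the group mean between 0.67 and 1.5 times the vehicle mean. The members were chosen from RNA only. Levels are CPM (the share of a library's counts, on TMM-scaled library sizes, in parts per 1000000), and 0.5 CPM was added to each group mean before the ratios were taken. A gene also had to reach a mean of 5 CPM with LPS+Dex. Of 117 genes that met these limits, 9 were set aside by name, because they belong to families of well-known glucocorticoid targets (KLF4, KLF9, MT1E, MT1X, PER1, TSC22D3) or to the solute carriers (SLC25A37, SLC31A2, SLC44A2).

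Glucocorticoids such as dexamethasone act through the glucocorticoid receptor, a nuclear receptor that binds the hormone in the cytoplasm, enters the nucleus and binds DNA. The receptor turns on some genes by binding response elements near them or far from them, and it dampens inflammatory genes that NF-kB and AP-1 drive. Genes of the first kind can respond to the hormone in cells that have met no inflammatory signal.

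The cells were THP-1, a human monocytic leukaemia line, made macrophage-like by 24 h in 10 ng/ml PMA, a phorbol ester. They then received, for 3 h, vehicle (ethanol in PBS), 100 ng/ml of lipopolysaccharide (LPS, a bacterial cell wall component sensed by Toll-like receptor 4), or the same dose of LPS with 1 µM dexamethasone (LPS+Dex). All 3 groups had received PMA, and no group received dexamethasone without LPS, so every dexamethasone value here is a value in the presence of LPS. Poly(A) RNA was sequenced from 4 libraries per treatment. Ribosome footprints, the mRNA fragments that ribosomes protect from RNase I, were sequenced from 5 libraries per treatment. RNA and footprints were taken from the same cells, so the footprints are another measurement of shared cultures. RNA libraries held 19.0 to 30.7 M counts and footprint libraries 11.5 to 26.1 M counts. All 10 monocyte and macrophage markers checked (CD68, CD14 and SPI1 among them) were above 1 CPM in each group of both assays, while no T cell, erythroid or epithelial marker reached a group mean of 1 CPM. Of the B cell markers, 1 of 4 did so, in the LPS+Dex footprints, and of the fibroblast markers 2 of 5 did so in every group of both assays. The footprint libraries numbered 4 stood apart from the others of their group for many members, as their values show.

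In RNA, the values that chose the members, the ratio of LPS+Dex to LPS ran from 2.02 for KIF13B to 42.4 for ARMC12, with a median of 2.90. There were 31 members at 4-fold or more and 8 at 8-fold or more. The mean level with LPS+Dex ran from 5.08 CPM for NAGS to 1633 CPM for TLR2 (median 43.0 CPM), and 23 members were at 100 CPM or more. With vehicle 7 members were under 1 CPM. LPS against vehicle was below 1 for 63 members and above it for the rest. Just inside the limits on that ratio were SH3PXD2B (0.6701), ITGA10 (0.672) and ABHD2 (0.682) at the low end, and ITPKC (1.46), ALDH2 (1.46) and DPP4 (1.46) at the high end. Just outside lay FBXO4 (0.666), PHC2 (0.665) and RRAS (0.665) below and B4GALNT1 (1.501), SMAP2 (1.54) and CERS4 (1.54) above. At the 2-fold limit KIF13B, RBPJ and FHL2 (each 2.02) were in, and BTD (2.00 after rounding), ZFP28 (1.99) and NACC2 (1.99) were out. By level, NAGS (5.08 CPM), ITGA10 (5.28 CPM) and RCAN3 (5.47 CPM) were in, and TP73 (4.81 CPM), CSGALNACT1 (4.57 CPM) and GLT1D1 (4.50 CPM) were out.

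**Figure D1:**
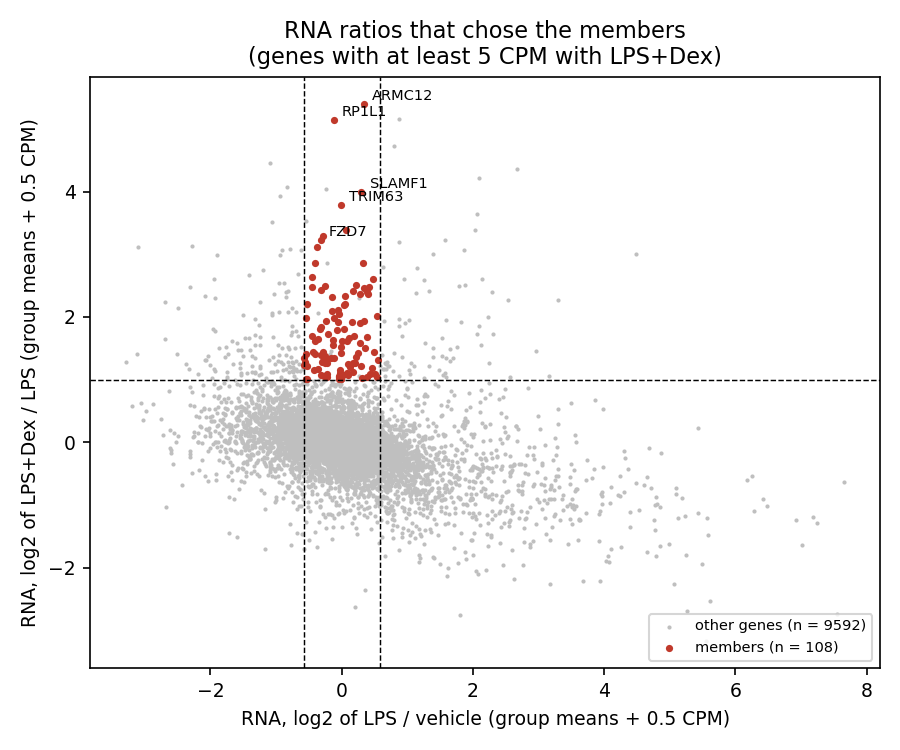
RNA ratios of group means for the 9700 genes with at least 5 CPM with LPS+Dex. The x axis is log2 of LPS over vehicle and the y axis log2 of LPS+Dex over LPS, each with 0.5 CPM added, and dashed lines mark the limits of the rule. The 108 members (red) fill the upper middle box by construction, from 2.02-fold for KIF13B to 42.4-fold for ARMC12, and grey points inside it are the 9 genes set aside by name.

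The footprints were not used in the choice. In LPS+Dex against LPS, 92 members rose in footprints and none fell (edgeR quasi-likelihood test, adjusted p under 0.05). By the same test 9.08% of the 12197 genes tested rose and 7.99% fell. Of the 108 members 103 passed the filter on low counts, and of these 4 (RP1L1, TRIM63, ITPKA and DNAH11) were low with vehicle and with LPS. They passed only through the LPS+Dex libraries, where they are high, so their rise is given as a description with no p, and without them 88 of 99 members rose. In the other 11 tested members the change did not pass, and 5 members were too low in footprints to test (ARMC12, KCNS3, FAM151A, C2orf92 and ITGA10). As a description, the value was above 0 for all 103 tested members, with a median log2 fold change of 1.55, against 0.02 over all tested genes. It ran from 0.02 for COL1A1 to 6.27 for RP1L1. At least a doubling was seen in 89 members, against 4.81% of tested genes. In 86 of the 103 tested members (87 of all 108) all 5 LPS+Dex footprint libraries lay above all 5 LPS libraries, against 7.33% of tested genes. RP1L1, TRIM63, ITPKA and DNAH11 are in these counts. Over the 103 tested members the RNA and footprint log2 fold changes had a Pearson correlation of 0.88 and a Spearman correlation of 0.77, as a description across genes that share the same libraries. The 5 replicates are numbered in the labels without a statement that they are separate cultures, so p-values measure the spread between these samples.

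**Figure D2:**
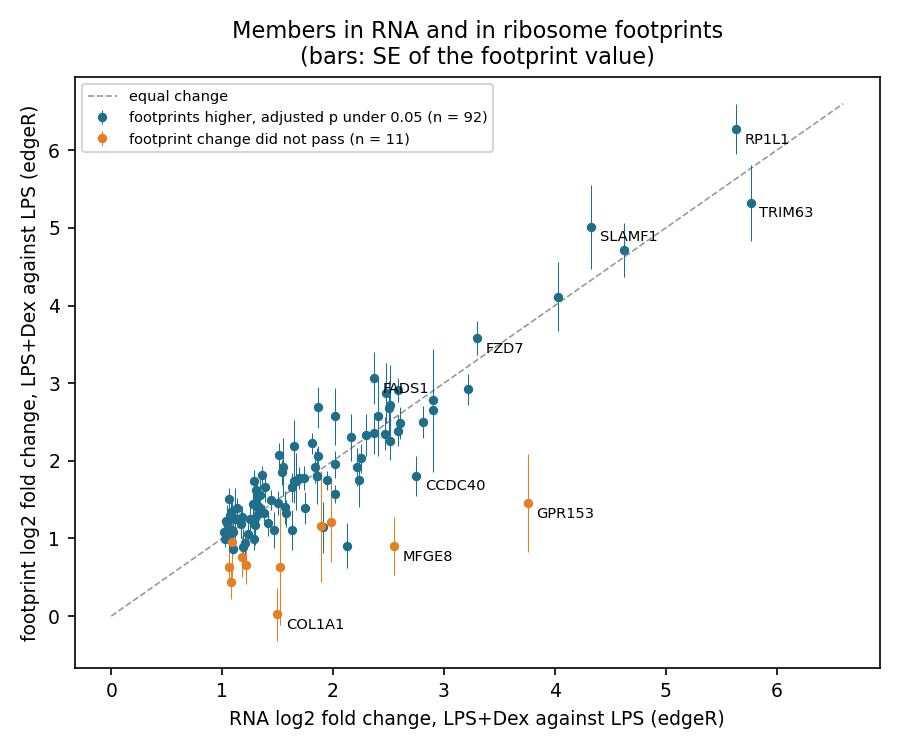
RNA log2 fold change (x axis) against footprint log2 fold change (y axis) of LPS+Dex against LPS for the 103 tested members, with the SE of the footprint value as bars and equal change as a dashed line. Blue points are the 92 members that rose in footprints, with RP1L1, TRIM63, ITPKA and DNAH11 among them as descriptions. Orange points are the 11 that did not pass. RP1L1 is the highest in footprints at 6.27 and COL1A1 the lowest at 0.02, with MFGE8 and GPR153 below the line.

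Cell surface receptors were 15 of the members, and 11 of the 14 tested rose in footprints (median log2 fold change 2.08 in footprints and 2.41 in RNA). SLAMF1 (CD150, a leukocyte receptor that binds itself on other cells, chr1:160608106-160647044) had the largest RNA ratio of them, 16.0-fold. Its RNA was at 0.923, 1.49, 1.71 and 1.11 CPM with vehicle, 1.60, 1.24, 1.33 and 2.73 CPM with LPS and 37.9, 32.4, 35.6 and 34.0 CPM with LPS+Dex. Its footprints were at 1.67, 2.30, 2.79, 2.82 and 1.48 CPM, 2.81, 2.14, 2.39, 5.87 and 3.97 CPM and 64.5, 61.3, 57.8, 301 and 63.7 CPM in the same order. The LPS+Dex libraries of both assays lay above all others without overlap, and footprint library 4 was several times above its group. The footprint log2 fold change was 5.01 ± 0.54 (SE, adjusted p = 8.03e-06, edgeR), and 4.44 without the libraries numbered 4. DESeq2 gave SLAMF1 no adjusted p in footprints.

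FZD7, a Frizzled receptor for Wnt proteins (chr2:202033855-202038441), was the receptor with the next largest RNA ratio, 9.35-fold. Its footprints were at 16.9, 16.7, 17.7, 21.6 and 16.8 CPM with vehicle, 9.96, 9.79, 6.58, 15.0 and 15.6 CPM with LPS and 120.5, 121, 128, 181 and 130.2 CPM with LPS+Dex. Those of LPS lay below those of vehicle in every library, and those of LPS+Dex lay far above both. The footprint log2 fold change was -0.65 for LPS against vehicle (adjusted p = 0.0144, edgeR) and 3.58 ± 0.22 for LPS+Dex against LPS (adjusted p = 4.71e-08). Its relative FZD9 rose too, from 3.86 ± 1.13 to 13.5 ± 1.36 CPM in footprints (SD, n = 5, log2 fold change 1.80, adjusted p = 8.55e-06).

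TLR2, the Toll-like receptor for bacterial lipoproteins (chr4:153684280-153710637), was the most abundant member. TLR2 RNA was at 485, 554, 457 and 405 CPM with vehicle, 486, 518, 494 and 561 CPM with LPS and 1669.6, 1645, 1594 and 1621 CPM with LPS+Dex. Footprints of TLR2 were at 409, 460.2, 455, 667 and 359 CPM, 571, 651, 679, 1616 and 599 CPM and 2124, 2280.0, 1833, 5529.7 and 1938 CPM. Library 4 was the highest of each footprint group, and the LPS value of library 4 was the only one that came near the LPS+Dex range. The log2 fold change of LPS+Dex against LPS in footprints was 1.73 ± 0.37 (adjusted p = 0.00345, edgeR). LPS against vehicle was 0.82 and did not pass (adjusted p = 0.0678), but it passed with the replicate number as a block (0.71, adjusted p = 2.44e-05).

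INSR, the insulin receptor, had RNA at 36.1, 31.9, 53.5 and 46.2 CPM with vehicle, 40.1, 33.8, 45.2 and 52.3 CPM with LPS and 204, 198, 210.2 and 181 CPM with LPS+Dex. INSR footprints with LPS were at 52.7, 52.5, 52.4, 94.3 and 74.7 CPM and with LPS+Dex at 204, 205, 210.0, 414 and 199.5 CPM, a rise of 1.92 ± 0.25 on the log2 scale (adjusted p = 4.66e-05, edgeR). The groups did not overlap. IL27RA, a subunit of the interleukin-27 receptor, rose from 27.2 ± 7.98 to 129 ± 35.6 CPM in footprints (SD, n = 5, adjusted p = 6.24e-06). C3AR1, the receptor for complement fragment C3a, rose from 20.7 ± 16.1 to 136 ± 88.9 CPM (adjusted p = 0.00128), with its highest value in library 4. TYRO3, a receptor tyrosine kinase of the family that recognises dying cells, rose by 2.68 on the log2 scale (adjusted p = 4.48e-05). Its LPS+Dex footprint library 4 was at 14.4 CPM, against 3.71 to 5.83 CPM in the others. IL1R2, the decoy receptor for interleukin-1, rose by 1.80 (adjusted p = 0.00245), also with its highest value in library 4. Without the libraries numbered 4 the values were 2.27 for TYRO3 and 1.70 for IL1R2. DPP4, a surface peptidase, rose by 2.57 (adjusted p = 0.00223). GPC1, a heparan sulfate proteoglycan anchored in the membrane, was at 19.9, 21.1, 16.0, 138 and 30.5 CPM in the LPS footprints and at 174, 159.6, 171, 757 and 156 CPM in those of LPS+Dex. Its log2 fold change of 2.65 ± 0.79 passed (adjusted p = 0.0302), but not when LPS library 1, 2, 3 or 5 or LPS+Dex library 4 was left out (adjusted p up to 0.081). GPR153, an orphan G protein-coupled receptor, STRA6, the receptor for the retinol-binding protein, and NPR1, the receptor for atrial natriuretic peptide, did not pass in footprints, and ITGA10, an integrin subunit, was not tested.

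**Figure D3:**
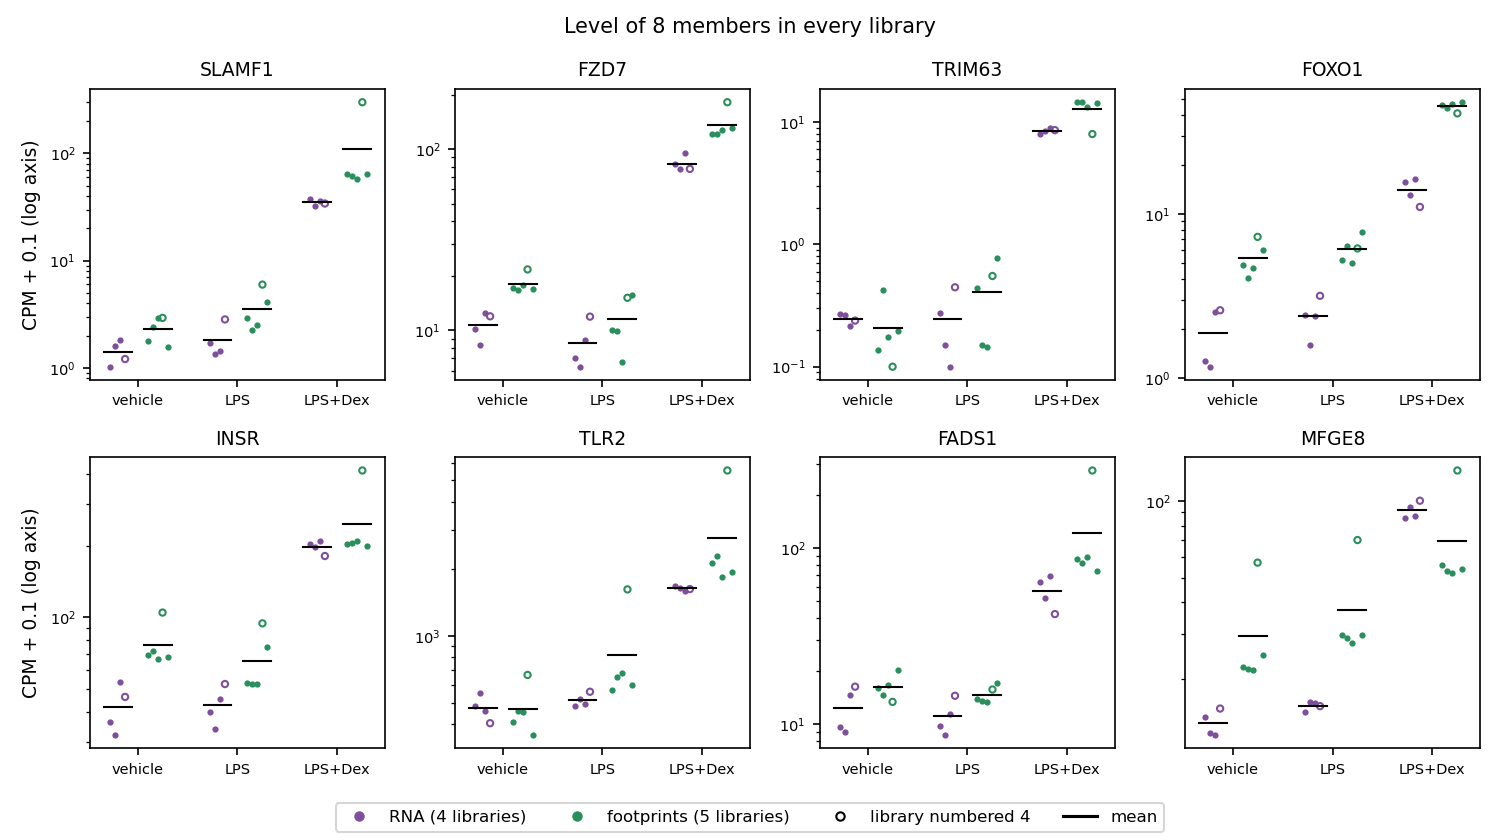
CPM of 8 members in every library (log axis, 0.1 CPM added), with 4 RNA libraries (purple) and 5 footprint libraries (green) per treatment, bars at the means and open circles for the libraries numbered 4. For SLAMF1, FZD7, TRIM63, FOXO1, INSR, TLR2 and FADS1 every LPS+Dex library lies above every LPS library in both assays. For MFGE8 the LPS footprint library 4 at 70.1 CPM lies above 4 of the 5 LPS+Dex footprint libraries.

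The 6 secreted or secretion-related members had the lowest median footprint log2 fold change of the roles (0.95), and 3 of the 6 rose. JAG2, a Notch ligand, rose by 0.99 on the log2 scale in footprints (adjusted p = 1.56e-04, edgeR), BMP8A, a bone morphogenetic protein, by 1.05 (adjusted p = 9.49e-05), and WLS, the carrier that brings Wnt proteins to the surface, by 1.14 (adjusted p = 0.0230). BMP8A has a close paralog, BMP8B, whose reads may be shared with it. The WLS call was lost when LPS library 1, 2 or 3 or LPS+Dex library 4 was left out (adjusted p up to 0.064).

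MFGE8, a secreted protein that bridges phosphatidylserine on dying cells to phagocyte integrins, had RNA at 14.1, 12.3, 12.0 and 15.3 CPM with vehicle, 14.8, 16.3, 16.0 and 15.6 CPM with LPS and 85.2, 94.5, 86.9 and 99.9 CPM with LPS+Dex, a ratio of 5.70. Its footprints were at 22.3, 21.9, 21.7, 57.2 and 24.8 CPM, 29.7, 29.0, 27.6, 70.1 and 29.6 CPM and 56.1, 52.8, 52.1, 131 and 54.0 CPM in that order. Within each numbered library the order was vehicle, LPS, LPS+Dex, yet library 4 was so high in each group that the groups overlapped. The footprint log2 fold change of 0.90 ± 0.37 did not pass (adjusted p = 0.123, edgeR). It passed at 0.90 with the replicate block (adjusted p = 2.56e-09) and at 0.90 without the libraries numbered 4 (adjusted p = 3.60e-10). In each of these fits it stayed under the RNA log2 fold change of 2.55. That gap, taken as footprint minus RNA, was the largest on the low side among members with at least 5 CPM in footprints.

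COL1A1, the main chain of type I collagen, had the smallest footprint change of the tested members. RNA of COL1A1 was at 5.37, 7.76, 5.03 and 5.46 CPM with vehicle, 8.20, 9.26, 6.74 and 9.95 CPM with LPS and 21.2, 24.8, 25.6 and 24.8 CPM with LPS+Dex. Its footprints were at 1.63, 1.74, 1.17, 0.757 and 2.12 CPM, 5.70, 2.34, 2.07, 1.48 and 4.36 CPM and 3.96, 2.59, 4.14, 3.54 and 2.20 CPM, with the LPS and LPS+Dex groups fully mixed. The footprint log2 fold change of LPS+Dex against LPS was 0.02 ± 0.34 (adjusted p = 0.985, edgeR), and it was the 1 tested member that did not pass with the replicate block either (0.09, adjusted p = 0.847). LPS against vehicle rose by 1.10 (adjusted p = 0.0163). Levels were low, so few counts stand behind each value. COL1A1 is also on the fibroblast marker list, whose 5 genes summed to 7.34 to 10.3 CPM with vehicle, 14.2 to 16.1 CPM with LPS and 34.4 to 42.0 CPM with LPS+Dex in RNA, with 2 of 5 above 1 CPM in each group. In footprints the 5 summed to 9.60 to 11.01 CPM, 16.1 to 25.6 CPM and 43.4 to 140 CPM in that order; the LPS+Dex sums lay above the LPS sums, unlike COL1A1 itself. The part of those markers in the result was not tested.

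GLDN, gliomedin, an adhesion protein of nerve nodes, showed a large excess in library 4. GLDN footprints were at 20.7, 24.2, 20.3, 136 and 22.4 CPM with LPS and 32.9, 32.3, 32.9, 212 and 38.1 CPM with LPS+Dex, and those with vehicle at 22.3, 23.3, 23.0, 119 and 25.05 CPM. Leaving library 4 aside, the LPS+Dex values lay above all LPS values. The log2 fold change of 0.64 ± 0.75 did not pass (adjusted p = 0.673, edgeR), and it passed at 0.64 with the replicate block (adjusted p = 2.56e-06).

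Channels and other membrane proteins were 6 members, and all 5 tested rose. PMP22, the peripheral myelin protein (chr17:15229779-15265326), was at 1.51, 2.17, 1.70 and 2.12 CPM in RNA with LPS and 15.0, 13.7, 14.7 and 12.4 CPM with LPS+Dex. PMP22 footprints were at 1.96, 2.02, 1.54, 2.20 and 1.89 CPM with vehicle, 3.45, 2.48, 1.94, 5.48 and 4.09 CPM with LPS and 22.4, 21.4, 20.3, 34.9 and 20.2 CPM with LPS+Dex, so the LPS+Dex group stood clear of both others. They rose by 2.78 ± 0.25 on the log2 scale (adjusted p = 1.29e-06, edgeR). GAPT, a transmembrane adaptor of blood cells, rose by 2.49 (adjusted p = 7.71e-07), TMEM218 by 1.28, HVCN1, the voltage-gated proton channel of phagocytes, by 1.17 (adjusted p = 0.00162), and KCNMB1, a potassium channel subunit, by 0.89 (adjusted p = 0.0150). KCNS3, a potassium channel subunit with no channel of its own, had 6.23 ± 1.12 CPM in RNA with LPS+Dex (SD, n = 4) and 0.211 ± 0.224 CPM in footprints (SD, n = 5).

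Transcription and chromatin factors were 15 members, and all 15 rose in footprints (median log2 fold change 1.45). FOXO1, the forkhead factor that insulin signalling keeps out of the nucleus, had the largest footprint change of the role. Its RNA was at 1.17, 1.07, 2.43 and 2.49 CPM with vehicle, 2.31, 1.4995, 2.29 and 3.07 CPM with LPS and 15.6, 12.9, 16.2 and 10.9 CPM with LPS+Dex. FOXO1 footprints were at 4.79, 4.00, 4.59, 7.15 and 5.90 CPM, 5.15, 6.26, 4.91, 6.07 and 7.66 CPM and 46.0, 44.1, 47.0, 41.0 and 47.9 CPM. Vehicle and LPS overlapped in both assays, LPS+Dex stood clear of both, and library 4 was the lowest of its LPS+Dex group. On the log2 scale the footprints rose by 2.91 ± 0.16 (adjusted p = 1.31e-08, edgeR). FOXO1 and INSR, an upstream receptor and a downstream factor of the same insulin pathway, were thus both members.

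TBX2, a T-box repressor, rose by 2.50 on the log2 scale in footprints (adjusted p = 7.86e-07, edgeR). JDP2, a partner of JUN that represses AP-1 sites, had footprints at 2.68, 2.98, 2.66, 2.97 and 4.72 CPM with LPS and 15.5, 15.8, 17.2, 11.9 and 21.3 CPM with LPS+Dex, a rise of 2.35 ± 0.21 (adjusted p = 1.45e-06). The neighbouring homeobox genes of the Iroquois family, IRX3 and IRX5, rose by 2.03 (adjusted p = 2.06e-06) and 1.45 (adjusted p = 8.50e-06). FOXN2, another forkhead factor, rose by 2.08 in footprints (adjusted p = 2.21e-07) against 1.51 in RNA. The weakest rises of this role were those of ATAD2, a bromodomain ATPase (0.99, adjusted p = 1.03e-05), FHL2, a LIM-domain cofactor (1.02, adjusted p = 8.99e-05), and RBPJ, the DNA-binding partner of Notch (1.09, adjusted p = 3.40e-06). JAG2, a ligand of Notch, was a member as well. MRTFA, the actin-sensing coactivator of SRF, was the most abundant in RNA with 249.9 ± 6.25 CPM with LPS+Dex (SD, n = 4), and its footprints rose by 1.39 (adjusted p = 2.62e-06). The other members of this role, BCL7A, ELK1, ARID5B, ZNF296 and FOXP4, rose by between 1.20 (FOXP4) and 1.92 (ELK1).

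Actin and cell shape regulation gave 12 members, of which 11 rose (median log2 fold change 1.65). RHOB, a small GTPase of endosomes and the product of an immediate-early gene, had RNA at 8.56, 7.34, 7.89 and 9.30 CPM with vehicle, 4.97, 5.95, 5.91 and 8.18 CPM with LPS and 54.6, 58.7, 58.9 and 60.9 CPM with LPS+Dex. RHOB footprints were at 9.45, 9.79, 7.03, 10.7 and 13.2 CPM with LPS and 80.6, 76.7, 89.2, 51.0 and 83.4 CPM with LPS+Dex, without overlap, a rise of 2.92 ± 0.20 on the log2 scale (adjusted p = 1.15e-07, edgeR). FMN1, a formin that elongates actin filaments, was nearly absent before dexamethasone. FMN1 RNA was at 0.310, 0.207, 0.0458 and 0.562 CPM with LPS and 8.48, 6.37, 8.44 and 5.42 CPM with LPS+Dex, and its footprints rose from 0.599 ± 0.369 to 16.1 ± 2.18 CPM (SD, n = 5, log2 fold change 4.71, adjusted p = 1.92e-07). ROCK1, a kinase that drives actomyosin contraction, had footprints at 34.2, 33.8, 38.7, 32.1 and 52.7 CPM with LPS and 133, 141, 119, 103 and 162 CPM with LPS+Dex, a rise of 1.78 ± 0.16 (adjusted p = 1.12e-06). RHOH, an atypical small GTPase of blood cells, rose by 1.40 (adjusted p = 1.94e-04), and MPRIP, a scaffold that targets myosin phosphatase, by 1.19 (adjusted p = 9.99e-05). SH3PXD2B, a podosome scaffold, rose by 1.81 (adjusted p = 6.47e-08), DLC1, a GTPase-activating protein, by 1.55 (adjusted p = 1.44e-05), TES, a focal adhesion protein, by 2.06 (adjusted p = 5.23e-08), and CYRIB, a RAC1-binding inhibitor of actin branching, by 0.87 (adjusted p = 7.32e-07). NHSL1 and DNMBP, a scaffold of the cell edge and an activator of CDC42, rose by 1.75 (adjusted p = 1.28e-07) and 1.29 (adjusted p = 1.74e-04).

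Kinases and proteins of calcium and inositol phosphate signalling were 9 members, and all of them rose in footprints, with the rise of ITPKA a description only. ITPKA, which phosphorylates inositol trisphosphate and bundles actin, had RNA at 0.629, 0.784, 0.636 and 0.933 CPM with vehicle, 0.754, 0.724, 0.825 and 0.908 CPM with LPS and 13.1, 13.2, 13.1 and 13.3 CPM with LPS+Dex, a 10.5-fold ratio with little spread. Its footprints were at 0.170, 0.0497, 0.360, 0.581 and 0.550 CPM with LPS and 5.36, 4.03, 5.14, 10.2 and 5.02 CPM with LPS+Dex, a difference of 4.11 ± 0.44 on the log2 scale that is a description, since ITPKA entered the fit only through its LPS+Dex libraries. ITPKC, an enzyme of the same reaction, rose by 1.32 (adjusted p = 5.23e-08). It also rose with LPS alone in footprints, by 0.53 (adjusted p = 7.45e-05), beside an RNA ratio of 1.46. RCAN1 and RCAN3, inhibitors of the calcium-activated phosphatase calcineurin, rose by 1.74 (adjusted p = 4.25e-04) and 1.252 (adjusted p = 7.71e-04). PRKCH, a protein kinase C of the kind that phorbol esters such as PMA activate, rose by 2.39 (adjusted p = 6.60e-07). RPS6KA2, a ribosomal S6 kinase, was the most abundant of the role in RNA (419.9 ± 32.6 CPM with LPS+Dex, SD, n = 4) but had only 46.9 ± 7.83 CPM in footprints (SD, n = 5), a rise of 1.40 over LPS (adjusted p = 2.62e-04). DAPK1, a death-associated kinase, rose by 1.11 (adjusted p = 0.00705), WEE1, which holds cells before mitosis, by 1.08 (adjusted p = 0.00640), and MAPK7, the kinase ERK5, by 1.10 (adjusted p = 8.73e-06).

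Lipid and other metabolism held 16 members, and 13 rose (median log2 fold change 1.74). FADS1 and FADS2 encode the desaturases that make polyunsaturated fatty acids, and the genes overlap by 801 bases at their starts (chr11:61799627-61817003 and chr11:61816203-61867354). FADS1 RNA was at 9.67, 8.53, 11.3 and 14.3 CPM with LPS and 63.7, 52.1, 69.1 and 41.9 CPM with LPS+Dex, and FADS2 RNA at 4.70, 4.14, 6.51 and 7.79 CPM and 31.2, 26.2, 33.7 and 22.9 CPM. FADS1 footprints were at 13.7, 13.4, 13.2, 15.6 and 16.9 CPM with LPS and 86.4, 82.4, 88.3, 276 and 73.7 CPM with LPS+Dex, a rise of 3.07 ± 0.33 on the log2 scale (adjusted p = 8.78e-06, edgeR). FADS2 footprints were at 16.7, 16.0, 17.0, 16.6 and 19.1 CPM and 67.1, 65.5, 73.0, 170.3 and 53.7 CPM, a rise of 2.33 ± 0.27 (adjusted p = 1.40e-05). In both genes all LPS+Dex libraries of both assays lay above all LPS libraries, with library 4 the highest in the LPS+Dex footprints. Without the libraries numbered 4 the footprint values were 2.54 for FADS1 and 1.91 for FADS2. FADS3, the third gene of the cluster, had a smaller footprint value. FADS3 footprints were at 68.1, 65.7, 61.6, 106 and 74.0 CPM with LPS and 89.0, 86.6, 93.0, 158 and 83.2 CPM with LPS+Dex, and the difference of 0.44 ± 0.22 did not pass (adjusted p = 0.216); with the replicate block it was 0.42 and passed (adjusted p = 1.21e-04).

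Sphingolipid enzymes were also among the metabolic members. SPTLC2, a subunit of the enzyme that starts sphingolipid synthesis, rose by 1.44 in footprints (adjusted p = 6.50e-05, edgeR), SGMS2, a sphingomyelin synthase, by 2.19 (adjusted p = 2.82e-04), and B4GALT6, which makes lactosylceramide, by 2.69 (adjusted p = 3.32e-06). ACOT11, an acyl-CoA thioesterase, had footprints at 15.8, 13.1, 13.7, 10.1 and 16.2 CPM with LPS and 70.7, 65.8, 74.2, 50.4 and 61.8 CPM with LPS+Dex, a rise of 2.22 ± 0.14 (adjusted p = 5.39e-08). OXCT1, the enzyme that lets cells burn ketone bodies, rose by 1.57 (adjusted p = 1.77e-07) and NAGS, which makes the activator of the urea cycle, by 2.88 (adjusted p = 7.13e-05). NAGS and B4GALT6 were low in footprints, at 0.326 ± 0.248 and 0.491 ± 0.141 CPM with LPS (SD, n = 5). With LPS+Dex they were at 2.46 ± 0.737 and 3.22 ± 0.975 CPM. NUDT16, a nucleotide hydrolase, rose by 1.92 (adjusted p = 8.06e-06), and FUT4, the fucosyltransferase behind the CD15 antigen of myeloid cells, by 1.51 (adjusted p = 2.83e-06). ABHD2, a lipid hydrolase, rose by 1.259 (adjusted p = 0.0197), a call lost when LPS library 1, 2, 3 or 5 was left out (adjusted p up to 0.055). ADPRHL1 and MTMR11 rose by 2.30 (adjusted p = 5.80e-05) and 1.34 (adjusted p = 3.83e-05). ALDH2, the mitochondrial aldehyde dehydrogenase, and ZDHHC14, a palmitoyltransferase, did not pass. A list of 36 genes of lipid storage and fatty acid breakdown held no member. Of the 32 tested in footprints, 7 rose and 2 fell (median log2 fold change 0.04), where 9.08% of all tested genes rose and 7.99% fell.

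Genes known from cilia and motor proteins held the most extreme members. RP1L1, a protein of photoreceptor cilia, had RNA at 1.259, 1.03, 1.10 and 1.69 CPM with vehicle, 0.843, 0.776, 0.779 and 2.12 CPM with LPS and 56.6, 60.4, 53.3 and 58.3 CPM with LPS+Dex. RP1L1 footprints were at 0.290, 0.242, 0.377, 0.138 and 0.192 CPM, 0.170, 0.248, 0.0901, 0 and 0.275 CPM and 12.9, 14.7, 13.4, 14.4 and 11.2 CPM, so ribosomes were found on it in every LPS+Dex library at levels that no other library approached. Its footprint log2 fold change of 6.27 ± 0.32 was the largest of the tested members, as a description only, since RP1L1 entered the fit through its LPS+Dex libraries. DNAH11, an axonemal dynein heavy chain, had footprints at 0.0363, 0.202, 0.414, 0.206 and 0.128 CPM with vehicle, 0.383, 0.894, 0.405, 0.903 and 0.982 CPM with LPS and 4.32, 5.19, 5.06, 2.38 and 4.24 CPM with LPS+Dex. With LPS+Dex they were 2.57 above LPS on the log2 scale, a description, since DNAH11 entered the fit only through its LPS+Dex libraries. LPS against vehicle was 1.84, from levels near or under 1 CPM, and is a description for the same reason. CCDC40, an axoneme assembly factor, rose by 1.81 in footprints (adjusted p = 1.23e-04, edgeR) against 2.75 in RNA. The kinesins KIF17 and KIF13B rose by 1.10 (adjusted p = 4.15e-05) and 1.23 (adjusted p = 1.08e-06).

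ARMC12, a protein of sperm mitochondria (chr6:35731524-35749079), had the largest RNA ratio of the members and almost no footprints. Its RNA was at 0.420, 0.619, 0.173 and 0.346 CPM with vehicle, 0.443, 0.362, 0.183 and 1.51 CPM with LPS and 43.0, 46.9, 39.8 and 59.0 CPM with LPS+Dex. ARMC12 footprints were at 0, 0, 0, 0 and 0.0321 CPM, 0.0426, 0, 0, 0.0645 and 0 CPM and 0.360, 0.279, 0.497, 0.0680 and 0.390 CPM, so even the LPS+Dex mean was 0.676% of the RNA mean. All 5 LPS+Dex values were above all LPS values, but the gene did not pass the filter. Without the filter, and in DESeq2, it was called higher (DESeq2 adjusted p = 0.00322). ARMC12 lies 2941 bases from FKBP5, a classic glucocorticoid target whose RNA was at 1663 CPM with LPS+Dex, an 18.6-fold ratio over LPS.

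Proteins of the ubiquitin system, stress and cell death were 6 members, and all of them rose in footprints, with the rise of TRIM63 a description only. TRIM63 (MuRF1, a ubiquitin ligase known for glucocorticoid-driven muscle wasting, chr1:26051301-26067630) went from nearly silent to low levels. TRIM63 RNA was at 0.168, 0.165, 0.116 and 0.138 CPM with vehicle, 0.177, 0.0517, 0 and 0.346 CPM with LPS and 7.87, 8.38, 8.82 and 8.50 CPM with LPS+Dex. Its footprints were at 0.0363, 0.323, 0.0753, 0 and 0.0962 CPM, 0.340, 0.0497, 0.0451, 0.452 and 0.668 CPM and 14.5, 14.5, 13.1, 7.89 and 14.2 CPM, with library 4 the lowest of the LPS+Dex group and all 5 far above the rest. The footprint difference was 5.32 ± 0.49 on the log2 scale, as a description, since TRIM63 entered the fit only through its LPS+Dex libraries. HERPUD1, a protein of endoplasmic reticulum stress, rose by 1.496 (adjusted p = 6.87e-07), BIK, a cell death activator of the BCL2 family, by 0.95 (adjusted p = 1.87e-04), the deubiquitinase USP31 by 1.18 (adjusted p = 2.78e-04) and the ubiquitin ligase MARCHF3 by 1.11 (adjusted p = 0.00280). RNF175, a RING finger gene that overlaps TLR2 by 478 bases (chr4:153710160-153760024), had 97.5 ± 14.5 CPM in RNA with LPS+Dex (SD, n = 4) but footprints at 1.32, 1.08, 1.33, 1.22 and 1.80 CPM, against 0.681, 0.845, 0.721, 0.774 and 0.589 CPM with LPS. Its log2 fold change of 0.91 ± 0.29 passed (adjusted p = 0.0435) but was lost in 12 of the 15 fits that left out 1 library (all but those without vehicle library 1, 4 or 5; adjusted p up to 0.116). Reads of RNF175 and TLR2 in the overlap cannot be told apart, because no source used here gives the strand setting of the counting.

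The promoter sequences, from RefSeq on GRCh38.p14, covered 80 of the 108 members with 136 windows of 300 bases (250 before to 50 after a start). They were searched on both strands for the full glucocorticoid response element GNACANNNTGTNC and for the shorter motif AGAACA, one arm of that element. TRIM63 was the 1 member of the 80 with the full element, against 0.480% of all 27305 genes, and 15 members (18.75%) had the shorter motif, against 17.5% of all genes. Genes can have several windows, and per window the order was the other way. The shorter motif was in 11.8% of the 136 member windows and 14.8% of all 35116 windows. Windows are shown for TRIM63, SLAMF1 and PMP22 because these members had large RNA ratios and a match, written in capitals. In TRIM63 the element begins 207 bases before the start and its end overlaps the shorter motif on the other strand.
TRIM63 chr1:26067581-26067880, minus strand: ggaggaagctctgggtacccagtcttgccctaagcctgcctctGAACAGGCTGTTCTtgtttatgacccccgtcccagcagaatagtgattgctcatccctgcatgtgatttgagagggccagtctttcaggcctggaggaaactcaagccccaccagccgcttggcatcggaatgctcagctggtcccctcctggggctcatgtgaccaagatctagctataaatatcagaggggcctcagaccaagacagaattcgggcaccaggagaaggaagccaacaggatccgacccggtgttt
SLAMF1 chr1:160646995-160647294, minus strand: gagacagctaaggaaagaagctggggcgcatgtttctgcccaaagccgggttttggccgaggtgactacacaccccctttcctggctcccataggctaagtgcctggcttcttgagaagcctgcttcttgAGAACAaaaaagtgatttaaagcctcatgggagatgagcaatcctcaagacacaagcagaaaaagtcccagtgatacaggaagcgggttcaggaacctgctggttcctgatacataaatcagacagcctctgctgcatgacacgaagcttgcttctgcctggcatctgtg
PMP22 chr17:15265277-15265576, minus strand, the first of its 3 windows: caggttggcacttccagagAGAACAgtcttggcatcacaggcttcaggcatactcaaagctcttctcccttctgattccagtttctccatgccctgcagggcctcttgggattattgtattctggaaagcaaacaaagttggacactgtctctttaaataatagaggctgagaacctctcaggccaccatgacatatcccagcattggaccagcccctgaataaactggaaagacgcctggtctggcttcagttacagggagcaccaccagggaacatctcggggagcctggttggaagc
In SLAMF1 the shorter motif begins 120 bases before the start and in PMP22 231 bases before it. The forkhead motif GTAAACA was found in 8.75% of members with a window and 4.19% of all genes, and the AP-1 motif TGANTCA in 11.25% and 9.37%. Per window the shares were 5.88% of member windows and 3.42% of all windows for the forkhead motif, and 8.09% and 7.71% for AP-1. A match in these letters is a description of the window, and binding was not measured.

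Vesicle traffic was represented by 6 members, which all rose. TBC1D16, a Rab GTPase-activating protein, had footprints at 3.45, 3.28, 2.34, 2.19 and 5.42 CPM with LPS and 17.5, 19.6, 23.1, 8.71 and 17.2 CPM with LPS+Dex, a rise of 2.35 ± 0.26 on the log2 scale (adjusted p = 1.09e-05, edgeR). The small GTPases RAB20, of phagosomes, and RAB33A rose by 1.75 (adjusted p = 0.00202) and 1.95 (adjusted p = 1.12e-06). ANKRD28 rose by 1.62 (adjusted p = 3.36e-07), BMERB1 by 1.33 and REEP3, a shaper of the endoplasmic reticulum, by 1.39 (adjusted p = 2.20e-04). The phagocyte effectors NCF1 and CTSC both rose. NCF1 is the p47phox subunit of the NADPH oxidase, and its footprints were at 31.6, 24.2, 30.3, 17.5 and 21.1 CPM with vehicle, 20.4, 19.3, 15.6, 10.9 and 21.0 CPM with LPS and 48.8, 54.1, 66.7, 57.5 and 48.4 CPM with LPS+Dex, a rise of 1.66 ± 0.19 over LPS (adjusted p = 1.29e-05). NCF1 has near-identical pseudogene copies, so its reads are uncertain. CTSC, a lysosomal protease that activates the serine proteases of granules, was at 637, 678, 684, 1544 and 633 CPM with LPS and 1341, 1362, 1282, 4581 and 1373 CPM with LPS+Dex. Its rise of 1.252 ± 0.40 (adjusted p = 0.0431) was lost when any of 7 libraries was left out (vehicle 3 or 5, LPS 1, 2, 3 or 5, or LPS+Dex 4; adjusted p up to 0.118).

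The remaining 9 members have other or uncertain roles, and 6 of the 7 tested rose. FNDC3A, a fibronectin-domain protein, rose from 78.9 ± 5.37 to 263 ± 17.1 CPM in footprints (SD, n = 5, log2 fold change 1.74, adjusted p = 9.30e-07, edgeR). CRYBG1 rose by 1.85, PIWIL4, a PIWI protein, by 1.66, MPV17L by 1.32, FAM83D by 1.56 and PMS1, a DNA mismatch repair protein, by 1.07. S100A10, the annexin A2 partner that binds plasminogen, was at 129, 141, 162, 280.3 and 144 CPM with LPS and 250.1, 261, 213, 354 and 271 CPM with LPS+Dex, and 0.65 ± 0.24 did not pass (adjusted p = 0.0771).

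The 11 tested members whose footprint rise did not pass, among them GPR153, MFGE8, STRA6, NPR1, COL1A1, GLDN, S100A10, FADS3, ALDH2 and ZDHHC14, had log2 fold changes from 0.02 to 1.46. The spread within groups was wide for most of them, as SE shows: 1.46 ± 0.63 for GPR153, 1.22 ± 0.52 for STRA6, 1.16 ± 0.71 for NPR1, 0.96 ± 0.45 for ALDH2 and 0.63 ± 0.24 for ZDHHC14. Adjusted p values for these 5 were 0.144, 0.138, 0.334, 0.181 and 0.0928 (edgeR). With the replicate number as a block, 102 of the 103 tested members rose, all but COL1A1, while 16.1% of all tested genes rose in that fit. With the libraries numbered 4 left out, 100 rose, against 16.2% of 12233 tested genes. Both counts include RP1L1, TRIM63, ITPKA and DNAH11, whose rises are descriptions.

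Whether LPS left the members unchanged was checked in the footprints. In LPS against vehicle, 11 members rose and 11 fell of the 103 tested, while 25.4% of tested genes rose and 27.2% fell. Together 22 members passed, against 52.6% of tested genes. DNAH11 is among those that rose, as a description, since it entered the fit only through its LPS+Dex libraries. The median log2 fold change of the members was -0.12 (all tested genes, -0.04). In footprints 79 of 103 members (76.7%) stayed within the 0.67 to 1.5 window of the rule, against 60.9% of the 12197 tested genes, and the RNA of the members had been chosen to do so. The numbers called depend on the block: with it 48 members passed (22 higher and 26 lower, 67.1% of all tested genes passing), and without the libraries numbered 4 it was 57 (22 higher and 35 lower, 67.5%). These counts hold DNAH11 too, as a description, and its 1.84 was the largest rise. Of the other members that passed, the largest rises were those of COL1A1, BMP8A (0.90, adjusted p = 1.38e-04, edgeR), PMP22 (0.86, adjusted p = 0.0106) and RHOH (0.74, adjusted p = 0.00909). The largest falls that passed were those of NUDT16 (-0.90, adjusted p = 0.00163), MPRIP (-0.87, adjusted p = 3.94e-04), DAPK1 (-0.75, adjusted p = 0.0236), FAM83D (-0.71, adjusted p = 0.0142) and FZD7. NUDT16 footprints were at 17.3, 12.4, 14.0, 11.9 and 15.6 CPM with vehicle and 9.49, 8.50, 7.79, 3.36 and 8.80 CPM with LPS, without overlap, although its RNA ratio was 0.798. MPRIP footprints were at 26.1, 26.1, 24.4, 15.3 and 23.9 CPM with vehicle and 13.8, 9.79, 11.7, 10.3 and 17.3 CPM with LPS, and LPS library 5 lay above vehicle library 4. In LPS+Dex against vehicle, a comparison that shares its LPS+Dex libraries with the one above, 96 members rose and none fell, while 24.4% of tested genes rose and 46.4% changed in either direction. The 96 include RP1L1, TRIM63, ITPKA and DNAH11, which entered the fit only through their LPS+Dex libraries, so their rise over vehicle is a description too.

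**Figure D4:**
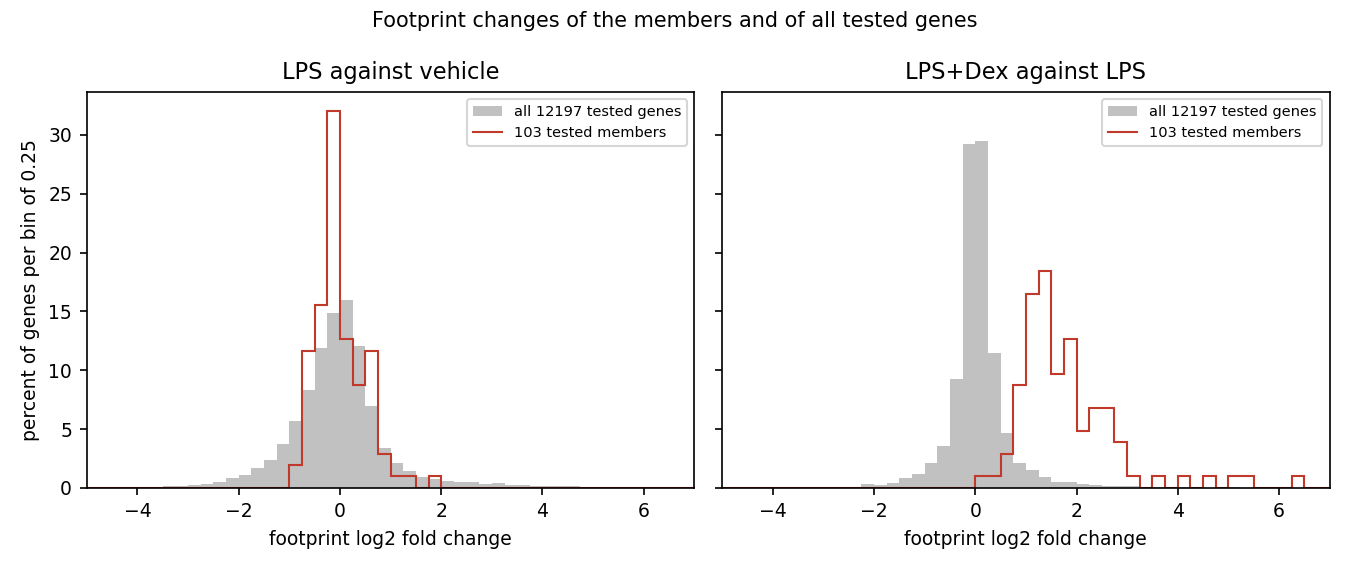
Distribution of footprint log2 fold changes of the 103 tested members (red line) and of all 12197 tested genes (grey), as percent of genes per bin of 0.25. With LPS against vehicle the members centre at -0.12 and all genes at -0.04; with LPS+Dex against LPS the members centre at 1.55 and all genes at 0.02.

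The change in footprints was larger than that in RNA for some members and smaller for others. Among members with at least 5 CPM in footprints, FADS1 (3.07 in footprints and 2.37 in RNA, both log2 fold changes of LPS+Dex against LPS), SLAMF1 (5.01 and 4.33), RP1L1 (6.27 and 5.64), FOXN2 (2.08 and 1.51) and SGMS2 (2.19 and 1.65) had the largest excess in footprints. Without the footprint libraries numbered 4 the values fell to 2.54 for FADS1, 4.44 for SLAMF1 and 6.02 for RP1L1, nearer to those of RNA, and FOXN2 (2.10) had the largest excess. MFGE8 (0.90 and 2.55), CCDC40 (1.81 and 2.75), GLDN (0.64 and 1.52), WLS (1.14 and 1.91) and STRA6 (1.22 and 1.98) had the largest shortfall. No test was made of these gaps, since RNA chose the members.

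Footprint CPM as a percent of RNA CPM with LPS+Dex had a median of 68.0% over the 108 members and 67.8% over the 9700 genes with at least 5 CPM in RNA. It was under 5% for 6 members (5.56%, against 3.23% of those genes): FAM151A (0.631%), ARMC12 (0.676%), C2orf92 (0.789%), RNF175 (1.39%), ITGA10 (3.03%) and KCNS3 (3.39%). FAM151A RNA was at 11.9, 15.6, 12.3 and 12.3 CPM with LPS and 53.1, 59.2, 50.5 and 59.7 CPM with LPS+Dex, while its footprints stayed at 0.468, 0.497, 0.180, 0.323 and 0.118 CPM and 0.240, 0.359, 0.414, 0.544 and 0.195 CPM, fully mixed. The whole of FAM151A (chr1:54609181-54623525) lies within ACOT11 (chr1:54548228-54639192), another member with a similar RNA ratio (4.15 and 3.45). Reads in the 14345 bases that the genes share cannot be told apart in a count table.

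Libraries numbered 4 differed from the rest by the route of the encoded protein. By textbook knowledge, 40 members encode proteins of membranes or the secretory route, 61 encode other proteins and 7 were unsure. In LPS+Dex footprint library 4, 28 of the 40 were the highest of their group (against 35.2% of tested genes), with a median log2 deviation of 0.88 from the median of the other 4 libraries, while 37 of the 61 others were the lowest (median -0.26, against 39.0% of tested genes lowest there). In LPS library 4 the 40 had a median deviation of 0.77 and in vehicle library 4 of 0.29. The 61 others were not low there. In LPS library 4, 21 of them were the lowest (median -0.003, against 39.5% of tested genes). In vehicle library 4, 23 were (median -0.05, against 39.4%). Beyond these, LPS footprint library 5 was the highest of its group for 37 members (against 20.5% of tested genes). RNA LPS library 4 was the highest of its group for 59 members (against 26.4% of tested genes), and a rule applied without it gave 115 members, 104 of them shared. The part of these library differences in the footprint changes was not tested beyond the fits without them: 100 of 103 rose without the libraries numbered 4, and 94 of 104 without LPS libraries 4 and 5. RP1L1, TRIM63, ITPKA and DNAH11 are in both counts as descriptions.

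**Figure D5:**
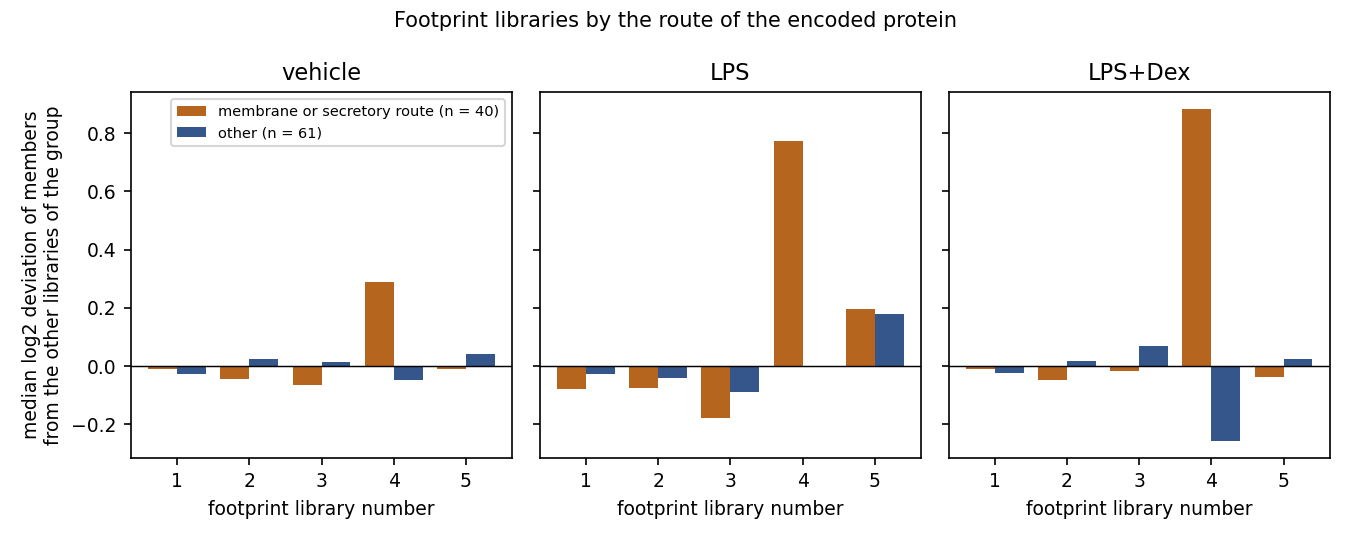
Median log2 deviation of the members in each footprint library from the median of the other libraries of its group, for 40 members of membranes or the secretory route (brown) and 61 others (blue), with the library number on the x axis. Library 4 stands at 0.29, 0.77 and 0.88 for the first kind with vehicle, LPS and LPS+Dex, and at -0.26 for the second kind with LPS+Dex.

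Several members lie next to each other or next to another raised gene. A gene raised at least 2-fold by LPS+Dex over LPS lay within 100 kb of 22 members (20.4%), against 6.31% of the 9606 genes at 5 CPM or more that could be placed on GRCh38.p14. Pairs of members were FADS1, FADS2 and FADS3, TLR2 and RNF175, ACOT11 and FAM151A, TBC1D16 and CCDC40 (770 bases apart), ITPKA and TYRO3, PIWIL4 and FUT4, and MPV17L and BMERB1. TBC1D16 and CCDC40 had RNA ratios of 5.05 and 6.22, and ITPKA and TYRO3 of 10.5 and 5.16. Genes that overlap or adjoin can share reads, so such pairs are not independent. Of the pairs named, FADS1 and FADS2, TLR2 and RNF175, and ACOT11 and FAM151A overlap. Further apart are PIWIL4 and FUT4 (17473 bases), MPV17L and BMERB1 (21317 bases) and ITPKA and TYRO3 (55661 bases).

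For scale, the other genes that LPS+Dex raised at least 2-fold over LPS by the same limits, again without the symbols left out, were measured in the same way. Of 132 that LPS had lowered below 0.67 of vehicle, 115 of 129 tested rose in footprints (median log2 fold change 1.47), and of 67 that LPS had raised above 1.5 times, 60 of 66 tested rose (median 1.70), beside 92 of 103 members (median 1.55). RP1L1, TRIM63, ITPKA and DNAH11 are counted among these members as descriptions, and genes of that kind were not separated in the other groups. No difference between these groups was tested.

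Lists of related genes place the members among known pathways. Of 84 genes known to be induced by glucocorticoids, 6 were members (FOXO1, IL1R2, INSR, MFGE8, RHOB and TLR2), and of the 69 tested non-members 32 rose in footprints and 6 fell with LPS+Dex against LPS (median log2 fold change 0.79, against 0.02 over all tested genes). Of 30 insulin and FOXO signalling genes, INSR and FOXO1 were members, and of the 27 tested non-members 9 rose and 3 fell (median -0.04), where 9.08% of all tested genes rose and 7.99% fell. PDK4 (4.50), SESN1 (2.49) and IRS2 (2.23) rose most beside FOXO1, and IRS1 (-1.98) fell most, on the log2 scale. Of 31 markers of alternatively activated macrophages, IL1R2 was a member, and of the 27 tested non-members 4 rose and 1 fell (median 0.20). Of 24 genes of the glucocorticoid receptor and its machinery, none was a member, and 5 rose and 3 fell of 23 tested (median -0.10). The receptor gene itself, NR3C1, fell by 0.81 in footprints.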

How the data were processed

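The authors deposited a table of raw counts for each assay, with the reads per Ensembl gene in each of 12 RNA and 15 footprint libraries. The genome was GRCh38/hg38, and the tools listed per the submitters' processing notes were Bowtie2 2.4.5 (footprints only), DESeq2 1.26.0, featureCounts 2.0.1 and STAR 2.7.10a. Not given in the sources used here: what each tool did, the annotation, strandedness, and how multiply matching reads were handled. CPM and group means were computed from the deposited counts. Footprints of all genes were tested with edgeR 4.0.16 (R 4.3.3): filterByExpr (minimum count 10, minimum total 15), TMM, a 2-sided quasi-likelihood test over 3 treatment groups sharing 1 spread per gene, Benjamini-Hochberg adjustment over all 12197 genes and calls at 0.05. On simulated data this recovered 76 of 100 genes changed 2-fold and 91 of 100 changed 4-fold, of 12068, with 11 false calls in all. The simulated counts were drawn independently, without the shift that many genes share in the libraries numbered 4. These figures therefore need not hold for the real libraries. DESeq2 1.42.0 was an alternative. RNA got no test, since it chose the members.

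The members and lists were chosen with earlier results of these data known, and roles and routes after the values were seen. Named with values by rule were the 15 largest RNA ratios, the 10 most abundant members, all tested members not called, 5 members called in each direction for LPS, those beside each limit, the 5 largest and 5 smallest footprint-minus-RNA differences, and members with a full response element. One of these members is not reported here by name. Members that illustrate a role beyond these were chosen after their values were seen. After removal of the treatment means, footprint libraries of equal number correlated above 0.1 across genes in 15 of 15 pairs (median r = 0.36), as did 35 of 60 pairs of unequal number, so a replicate block was fitted beside the main values. Without the libraries numbered 4 these were 4 of 12 and 5 of 36 pairs, so the pairing rests largely on those libraries. No 2 libraries agreed within counting noise.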

Additional observations from a re-analysis of the deposited data

Results flagged for a closer look

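Among the 53 members chosen for naming by the rule given above, each group of 4 RNA or 5 footprint libraries was searched for a library whose level lay far from the others by Dixon's criterion at 95%. Of 318 groups, 68 held such a library, and chance alone marks about 1 group in 20. The footprint libraries numbered 4 gave 55 of the 58 footprint cases. In LPS+Dex footprint library 4 the level in CPM stood far above the other 4 libraries for SLAMF1 301, ITPKA 10.2, FZD7 181, GPC1 757, PMP22 34.9, MFGE8 131, IL27RA 191, TLR2 5529.8, CTSC 4581, HERPUD1 430.2, FADS3 158, STRA6 36.7, GLDN 212, NPR1 13.8, ABHD2 2097, DPP4 14.1, NAGS 3.74, WLS 23.2, SGMS2 14.1 and FADS1 276. It stood far below them for TRIM63 7.89. In LPS footprint library 4 the level in CPM stood far above the other 4 libraries for GPR153 1.87, GPC1 138, MFGE8 70.1, TLR2 1616, CTSC 1544, HERPUD1 135, S100A10 280.2, FADS3 106, STRA6 15.2, GLDN 136, NPR1 6.32, DAPK1 44.5, ABHD2 911 and DPP4 2.13. It stood far below them for ALDH2 1.29 and NUDT16 3.36. In vehicle footprint library 4 the level in CPM stood far above the other 4 libraries for FZD7 21.6, GPC1 123, CCDC40 3.99, MFGE8 57.2, IL27RA 56.3, CTSC 1208, S100A10 205, FADS3 99.7, FNDC3A 157, STRA6 13.8, GLDN 119, NPR1 4.88, DAPK1 77.8, ABHD2 1137, DPP4 2.55 and WLS 6.47. It stood far below them for ALDH2 1.10 and MPRIP 15.3. Outside these libraries, ARMC12 was highest in vehicle footprint library 5 at 0.0321 CPM, CYRIB was lowest in vehicle footprint library 1 at 187 CPM, ITGA10 was highest in vehicle footprint library 2 at 0.0808 CPM. The 10 RNA cases were spread over several libraries. With vehicle they were CYRIB lowest in library 2 at 251 CPM, STRA6 highest in library 4 at 7.99 CPM and COL1A1 highest in library 2 at 7.76 CPM. With LPS they were RP1L1 highest in library 4 at 2.12 CPM, IL27RA highest in library 4 at 37.9 CPM, DNAH11 highest in library 2 at 6.67 CPM and FHL2 lowest in library 1 at 6.21 CPM. With LPS+Dex they were NPR1 lowest in library 1 at 8.73 CPM, BMP8A highest in library 4 at 49.4 CPM and DPP4 highest in library 3 at 8.28 CPM.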

How the results depend on the processing

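Library scaling (median-of-ratios), DESeq2 and testing without the filter on low counts each gave 92 members rising in footprints with LPS+Dex over LPS, as did the fit reported. RP1L1, TRIM63, ITPKA and DNAH11, given above as descriptions, are counted in this and the following numbers of rising members. Where DNAH11 was called for LPS against vehicle, that call is a description too. DESeq2 called 2 members fewer (SLAMF1 and GPC1, of 4 without an adjusted p) and 2 more, ARMC12 among them. Leaving out 1 footprint library at a time gave 87 to 96 members for LPS+Dex over LPS, 16 to 32 called for LPS against vehicle, and 94 to 99 rising for LPS+Dex against vehicle. The replicate block gave 102, 48 and 101 for these 3 counts, and leaving out the libraries numbered 4 gave 100, 57 and 100, so only the LPS count moved by over 1.5 times. A narrower RNA window for LPS over vehicle, from 0.8 to its inverse, left 69 members, of which 62 rose and 8 were called for LPS. Leaving out 1 RNA library at a time gave 103 to 115 members.

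Among the 103 members tested in the main fit, the LPS+Dex against LPS footprint value turned negative for COL1A1 and GLDN in some fits. Without LPS libraries 4 and 5, 104 members were tested, and the lowest value, -0.16, was that of another member. COL1A1 was at -0.19 without the libraries numbered 4, -0.07, -0.10 and -0.15 without LPS library 2, 3 and 4, -0.06, -0.07 and -0.02 without LPS+Dex library 1, 3 and 4, and -0.046 without LPS libraries 4 and 5. Leaving out 1 library at a time gave -0.15 to 0.33 for COL1A1 and -0.40 to 1.68 for GLDN, whose lowest value came without LPS+Dex library 4. The cause was not tested. The fits without RNA LPS library 4, without LPS footprint libraries 4 and 5 and without each RNA library were chosen after seeing the data.

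Limits: the footprints come from the same cultures as the RNA that chose the members, dexamethasone was never given alone, and scaling makes each change relative to the average gene. Depth limits members under about 1 CPM in footprints, where 5 could not be tested.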
